A study of Homo sapiens with 12 samples.

Results

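The comparison described here set JQ1 directly against I-BET 762, a pair of inhibitors of the bromodomain and extra-terminal (BET) proteins, in SK-UT-1 cells. Its members were the 4 JQ1 and 3 I-BET 762 libraries, which are 7 of the 10 libraries with values and 7 of the 12 labelled samples. Genes entered the comparison if at least 3 of these 7 libraries had a normalized count of at least 10, which 14262 of 22784 gene symbols met. SK-UT-1 is an established line grown from a uterine leiomyosarcoma, a malignant tumour of the smooth muscle of the uterus, and all libraries came from this 1 line. Both inhibitors were given at 5 µM and RNA was taken at 48 h. JQ1 replicates were numbered 17 to 20 and I-BET 762 replicates 21 to 23, and values are listed in that order throughout. The 3 vehicle libraries (VEH, cells given DMSO, replicates 13 to 15) serve as a reference level and entered no test. VEH replicate 16 and I-BET 762 replicate 24 were not analysed here. Nothing in the labels says that replicates were separate cultures, so p-values measure only the spread between these samples, which may be technical.

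BET proteins read acetylated lysines on histones through their bromodomains and recruit the transcription elongation machinery, including P-TEFb, to promoters and enhancers. JQ1 and I-BET 762 both occupy the acetyl-lysine pocket of the bromodomains. Their cores differ in that JQ1 is a thienotriazolodiazepine, with a thiophene ring, whereas I-BET 762 carries a benzene ring there. Their side chains also differ, JQ1 being a tert-butyl ester and I-BET 762 an ethylamide. Known effects of BET inhibition include induction of HEXIM1, which holds P-TEFb inactive, and changes in histone, interferon and matrix genes. One pair of compounds at 1 dose and 1 time was compared, so the data hold no dose response. RNA was taken from whole cultures, in which fewer cells of a state and less RNA per cell cannot be told apart.

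The 7 libraries held 35691648 to 39658989 reads on genes, and a count of 3 reads corresponded to 2.95 to 3.30 normalized counts. Summed normalized counts were 39218686 to 41845407 in the JQ1 libraries and 37196649 to 37829697 in the I-BET 762 libraries. The first principal component of the tested genes held 39.2% of the variance and separated the inhibitors. Within inhibitors, log2 values correlated at 0.9916 to 0.9941 for JQ1 and 0.9947 to 0.9950 for I-BET 762, over 14262 genes from libraries of 1 line, and between inhibitors at 0.9885 to 0.9908. The JQ1 libraries differed among themselves by base composition. Genes with over 61.1% G and C in their exons deviated from their mean over the 7 libraries by a median of 0.12 (log2) in JQ1 replicate 17 and 0.13 in replicate 19, against -0.18 in replicate 18 and 0.02 in replicate 20. Over 13955 genes, the Pearson correlation of each gene's deviation with its GC content was 0.14, -0.35, 0.16 and 0.11 in replicates 17 to 20. JUNB, JUND, JUN, H2AX, IER5L, HES6 and FZD8 were higher in replicates 17 and 19 than in replicates 18 and 20. Whether base composition had a part in this was not tested. Counts that rest on these replicates are given with and without replicates 17 and 19. Of the smooth muscle markers, ACTA2 ranged from 2684 to 7326 normalized counts and CALD1 from 4933 to 9738 over all 10 libraries. ACTA2 averaged 7071 with VEH, 3075.5 with JQ1 and 3350 with I-BET 762, and CALD1 9439, 5002 and 5917. In the same order, TAGLN averaged 1599, 126 and 157, CNN1 95.4, 7.06 and 14.5, and DES 187, 7.79 and 20.1. Markers of other cell types were absent only in part. The leukocyte marker PTPRC and the endothelial markers PECAM1, CDH5 and VWF reached at most 4.06 normalized counts in any library. In contrast, CD14 was at 17.7 to 37.0 and higher with JQ1 (0.66, limma adjusted p = 0.048), though not without any 1 library, where the adjusted p was up to 0.16. The endothelial gene EMCN was at 101 to 1097 and lower with JQ1 (-0.95 ± 0.12), CLDN5 was at 6.09 to 31.4, and the epithelial keratins KRT8, KRT18 and KRT19 were at 80.1 to 742 without passing the rule below. The part of such cells or states in the results was not tested.

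A gene was said to differ when the Benjamini-Hochberg adjusted p of limma was under 0.05 and the fold change over 1.5. By this rule 682 genes differed between the inhibitors, or 4.78% of those tested. Of these, 251 genes (1.76%) were higher and 431 genes (3.02%) lower with JQ1. The libraries of the inhibitors did not overlap in 655 of the 682 genes, nor in 4954 (34.7%) of all tested genes. Most differences were small. The median absolute difference over all tested genes was 0.15 on the log2 scale, and 156 genes, 70 higher and 86 lower with JQ1, differed by over 2-fold. For 10260 genes, or 71.9%, the 95% interval of the difference lay wholly inside a 1.5-fold change in either direction. A further 3320 genes neither passed the rule nor had such an interval, so for them a difference of that size can be neither shown nor put outside the interval. The balance between directions depended on the scaling: with libraries scaled to equal totals, 164 genes were higher and 649 lower with JQ1.

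**Figure D1:**
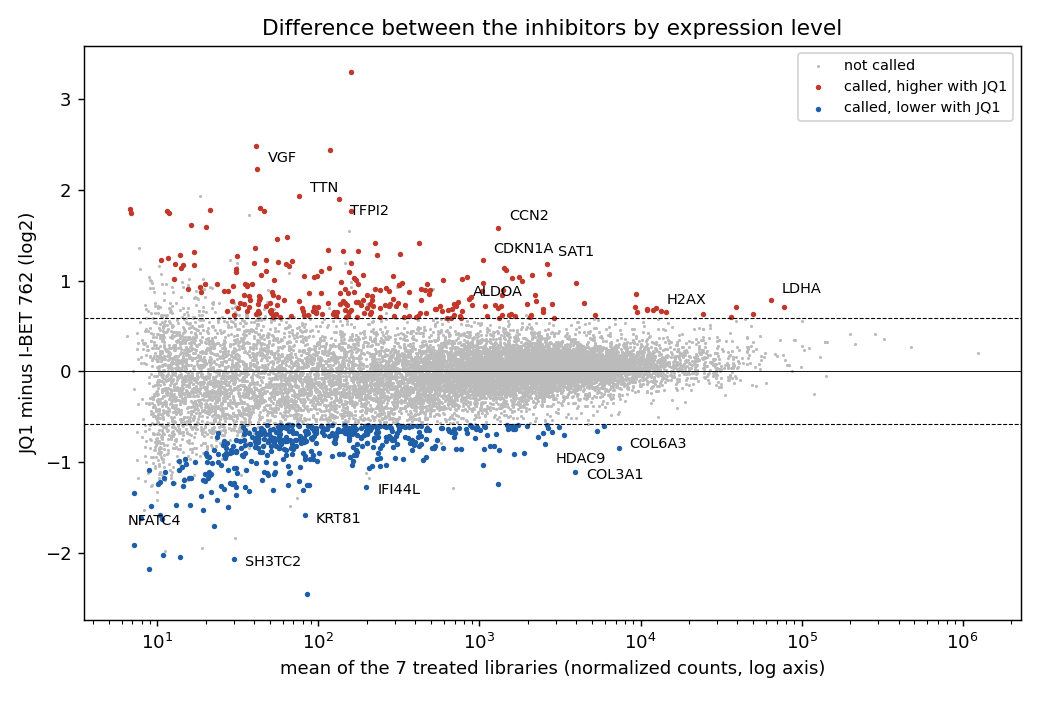
Difference between JQ1 and I-BET 762 (log2, positive when higher with JQ1) against the mean normalized count of the 7 libraries (log axis), 1 point per tested gene, with coloured points for the genes that differed. The 251 genes higher with JQ1 and the 431 lower lie outside the lines at 1.5-fold, and most of the 14262 genes lie near 0.

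The genes that differed lay, as a rule, further from the vehicle level with JQ1 than with I-BET 762, and so did most of all tested genes. Among the 251 genes higher with JQ1, the JQ1 mean was the farther from the VEH mean in 177, the I-BET 762 mean in 14, and the inhibitors lay on opposite sides of VEH in 60. Among the 431 genes lower with JQ1 these counts were 372, 12 and 47, and among all 14262 tested genes 9229, 3488 and 1545. The I-BET 762 mean fell within the range of the VEH libraries for 35 of the 251 genes (13.9%) and 33 of the 431 genes (7.66%), against 16.4% of all tested genes. Both distances use the same VEH libraries, so these counts are a description and carry no test.

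Among the genes higher with JQ1, those with the largest differences included secreted and matrix-associated proteins. VGF (chr7:101162509-101165569) encodes a secreted neuropeptide precursor. Its normalized counts were 65.9, 51.1, 92 and 44.6 with JQ1, 8.86, 11 and 18.7 with I-BET 762 and 15.5, 5.55 and 12.7 with VEH. Every JQ1 library was above every I-BET 762 and VEH library, while the I-BET 762 libraries overlapped VEH, and the difference was 2.23 ± 0.30 (log2, SE, limma adjusted p = 0.0002). TFPI2 (chr7:93885396-93890753), a secreted inhibitor of serine proteases, stood at 199, 190.4, 200.1 and 199 with JQ1 and 51.2, 49.1 and 56.1 with I-BET 762, against 9.69, 5.55 and 9.1 with VEH. Its 3 groups did not overlap, and the difference of 1.90 ± 0.12 (limma adjusted p = 7.1e-07) made it 3.73-fold higher with JQ1. CCN2 (chr6:131948176-131951372), a matricellular protein also called connective tissue growth factor, read 1912, 1693, 1853 and 1843 with JQ1, 596, 527 and 716 with I-BET 762 and 240.2, 293 and 246 with VEH. The order was thus VEH, I-BET 762, JQ1 without overlap, with a 2.99-fold difference between the inhibitors (log2 1.58 ± 0.09, limma adjusted p = 3.2e-07). TTN (chr2:178525989-178830802), the gene of the giant sarcomere protein titin, was at 116, 104, 112 and 108 with JQ1 and 33.5, 18 and 36.4 with I-BET 762, a difference of 1.93 ± 0.22. The noncoding RNA LINC02603 was at 64.8, 62, 61 and 75.1 with JQ1, 14.8, 19 and 22.6 with I-BET 762 and at most 2.91 with VEH, and differed by 1.77 ± 0.21.

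The promoter of VGF is shown because VGF had the largest of these differences. The 250 bases before its start in the RefSeq table (GRCh38.p14, chr7:101165570-101165819, minus strand) hold a cAMP response element, TGACGTCA, from 79 to 72 bases before the start and a TATA box, TATAAA on the other strand, from 32 to 27 bases before it, both in capitals.
VGF: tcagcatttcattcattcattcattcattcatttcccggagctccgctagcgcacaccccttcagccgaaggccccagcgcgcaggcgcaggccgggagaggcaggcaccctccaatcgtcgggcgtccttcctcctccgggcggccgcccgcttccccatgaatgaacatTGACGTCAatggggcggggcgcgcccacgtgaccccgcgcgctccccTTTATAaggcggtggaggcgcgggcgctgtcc
Of the 10881 tested genes with a promoter in that table, 2.90% hold TGACGTCA and 5.21% hold TATAAA on either strand. A match is a match of letters and was not tested for binding.

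Another 5 of the 10 largest differences in this direction are uncertain, because most of each gene's exon sequence occurs a second time in the reference assembly, so that reads could be split or lost in counting. For PHRF1 (2.48), CD99 (2.44), BRD2 (1.80), EEF1D (1.77) and PTPRK (1.48), 95% to 100% of 75-base windows were also found elsewhere. Their JQ1 libraries were uneven. BRD2 was at 144, 56.6, 26 and 32.5 with JQ1, 7.87, 16 and 21.7 with I-BET 762 and 6.78, 12.9 and 153 with VEH, so that a single VEH library exceeded every JQ1 library. EEF1D was at 67, 86, 115 and 718 with JQ1, where replicate 20 stood apart. BRD2 did not pass without I-BET 762 replicate 21 (difference 1.42, limma adjusted p = 0.091), EEF1D without any 1 of the I-BET 762 libraries (difference 1.01 to 2.52 over the alternatives, limma adjusted p up to 0.16), and PHRF1 without these or JQ1 replicate 17 or 18 (difference 1.75 to 3.10 over the alternatives, limma adjusted p up to 0.15). Over all genes that were higher with JQ1, 23 (9.16%) were copied over more than 50% of their windows, against 9 (2.09%) of those lower and 382 (2.68%) of all tested. Without copied genes, 233 genes were higher and 430 lower.

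Among the genes lower with JQ1, all 10 with the largest differences were also below VEH in both inhibitors on average except LINC01798. SH3TC2 (chr5:148923639-149063163), an adaptor protein of the endosome recycling pathway, had normalized counts of 6.59, 10.9, 18 and 14.2 with JQ1, 60, 60.2 and 39.4 with I-BET 762 and 249.9, 279 and 230.2 with VEH. The groups did not overlap, and SH3TC2 was 4.19-fold lower with JQ1 than with I-BET 762 (log2 -2.07 ± 0.32, limma adjusted p = 0.00061). KRT81 (chr12:52285913-52291534), a hair keratin with 35% of its windows copied in related keratin genes, read 38.5, 38.1, 53 and 46.7 with JQ1, 133, 121 and 146 with I-BET 762 and 1087, 1179 and 1049 with VEH. Its difference was -1.58 ± 0.17, again without overlap. ANK3, which anchors membrane proteins to the cytoskeleton, was at 34.1, 37, 24 and 32.5 with JQ1 and 72.8, 83.2 and 82.7 with I-BET 762 (-1.31 ± 0.19). TNS1, a focal adhesion protein, was at 50.5, 42.4, 56 and 62.9 and 126, 146 and 108 in the same order (-1.25 ± 0.17). CES3 (-1.27), SLCO5A1 (-1.26), PACSIN1 (-1.25) and LINC01798 (-1.30) completed the list beside TRIM22 and IFI44L, which belong to the interferon-stimulated genes below. NFATC4 (chr14:24365673-24379604), a calcium-regulated transcription factor, had 8.79, 9.79, 13 and 9.13 with JQ1, 38.4, 27.1 and 28.5 with I-BET 762 and 904, 869 and 891 with VEH. Both inhibitors thus left a small remainder of the vehicle level, and the remainder was 2.89-fold smaller with JQ1 (log2 -1.53 ± 0.29, limma adjusted p = 0.0021).

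Some of the narrowest errors were found where the 7 libraries averaged 2000 or more normalized counts. SAT1 (chrX:23783173-23786210), the rate-limiting enzyme of polyamine breakdown, stood at 3253, 3688, 3355 and 3524 with JQ1, 1557, 1509.9 and 1485 with I-BET 762 and 1451, 1536 and 1444 with VEH. Only the JQ1 libraries stood away from the others, and SAT1 was 2.27-fold higher with JQ1 than with I-BET 762 (log2 1.19 ± 0.06, limma adjusted p = 1.5e-07). TIMP1, an inhibitor of matrix metalloproteinases, had the same shape, with 4529, 5221, 4984 and 5431 under JQ1, 2693, 2467 and 2543 under I-BET 762 and 2474, 2503 and 2372 under VEH (0.97 ± 0.06). TEX14, a gene of germ cell intercellular bridges, was at 2698, 2663, 2658 and 2875 with JQ1, 1182, 1319 and 1431 with I-BET 762 and 148, 172 and 142 with VEH. Here both inhibitors were far above VEH, and JQ1 exceeded I-BET 762 by 1.06 ± 0.07. ID4, an inhibitor of basic helix-loop-helix factors, differed by 0.86 ± 0.07. In the other direction, HDAC9 (chr7:18086949-19002416), a class IIa histone deacetylase, was at 1893, 2073, 1929.8 and 1835 with JQ1, 3422, 3355 and 3344 with I-BET 762 and 7949.5, 8152 and 7986 with VEH. The spread within each group was small beside the gap, and HDAC9 was 1.75-fold lower with JQ1 (log2 -0.80 ± 0.06, limma adjusted p = 1.1e-06). NAV3, a microtubule-binding protein, and BMP5, a bone morphogenetic protein, differed by -0.70 ± 0.05 and -0.72 ± 0.06.

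**Figure D2:**
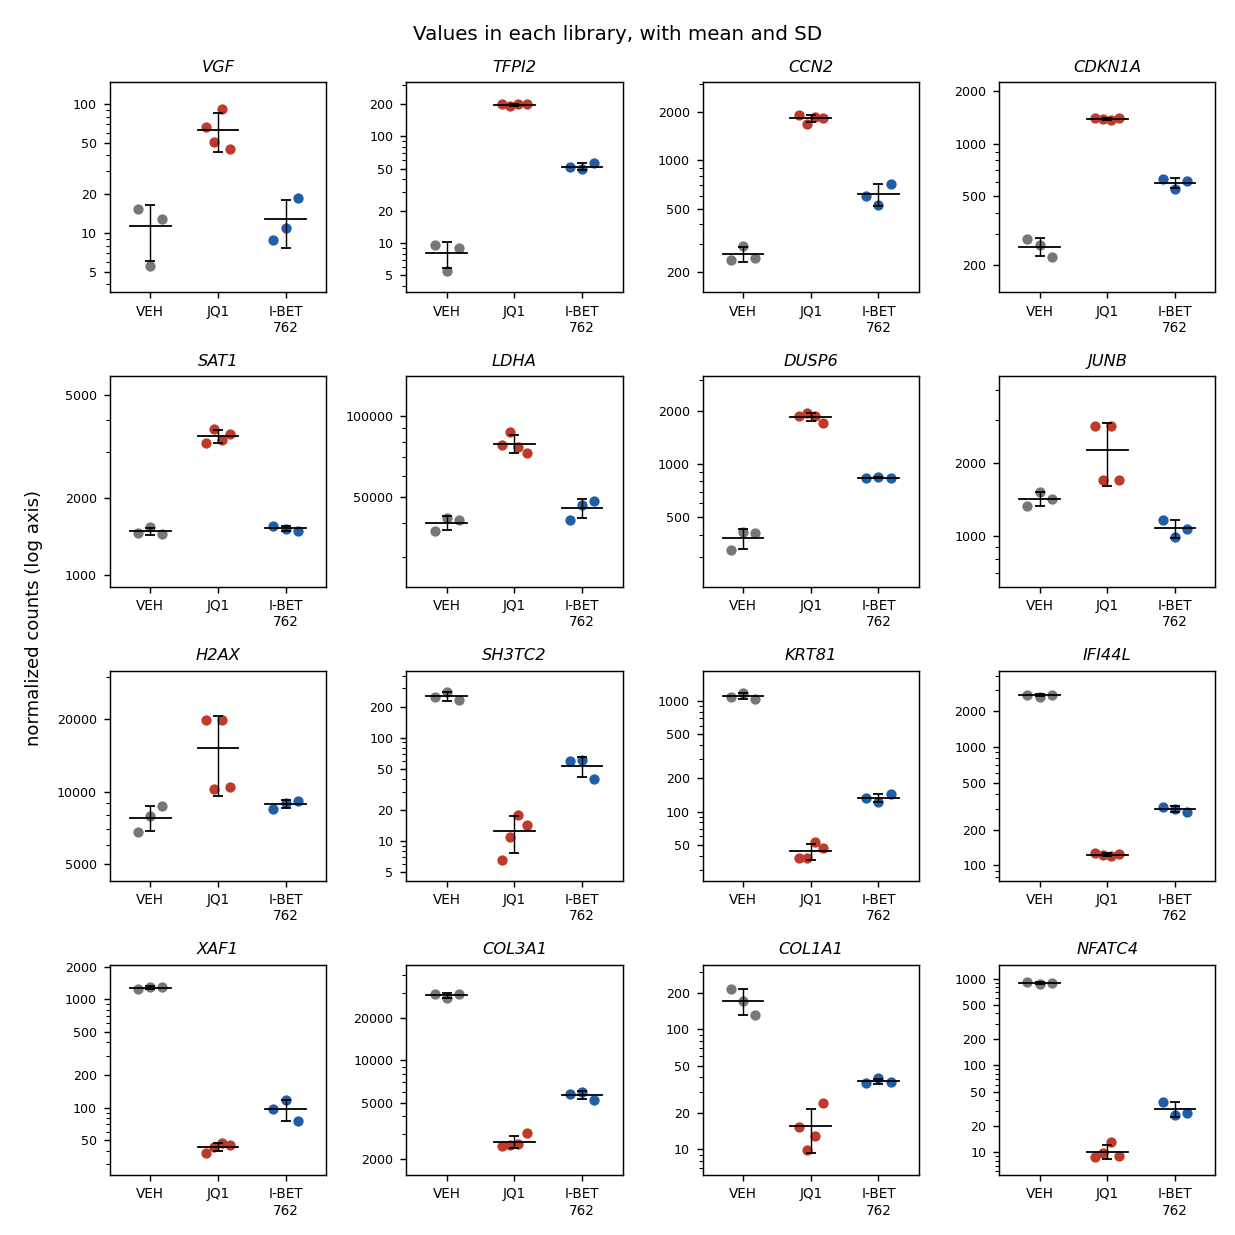
Normalized count in each library (log10 axis) for 16 genes named in the text, 1 panel per gene, with VEH, JQ1 and I-BET 762 libraries as points and lines for the group mean and SD. In the panel of SAT1 the 4 JQ1 libraries lie between 3253 and 3688 and the 3 I-BET 762 libraries between 1485 and 1557, beside VEH.

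The AP-1 and immediate early genes that differed were all higher with JQ1. These are transcription factors that growth factor and stress signals induce within minutes, and AP-1 itself is a dimer of FOS and JUN proteins. Of 21 members, all tested, 10 were higher and 0 lower with JQ1, or 47.6% against 4.78% of all genes, and the median difference was 0.56 (log2) against 0.0038 over all tested genes. JUNB (chr19:12791486-12793315), a single-exon gene, had normalized counts of 2843, 1695, 2851 and 1701 with JQ1, 1166, 985 and 1067 with I-BET 762 and 1323, 1518 and 1415 with VEH. All JQ1 libraries were above VEH and all I-BET 762 libraries below it, though JQ1 replicates 17 and 19 were well above replicates 18 and 20, and the difference was 1.04 ± 0.17 (limma adjusted p = 0.00073). FOS read 2777, 2526, 2870.3 and 2693 with JQ1, 2024, 1337 and 1465 with I-BET 762 and 1379, 1341 and 1241 with VEH, and differed by 0.78 ± 0.11 (limma adjusted p = 0.00026). Here the JQ1 libraries were even and the I-BET 762 libraries reached down into the VEH range. FOSB was at 121, 90.3, 102 and 119.7 with JQ1 and 72.8, 51.1 and 54.1 with I-BET 762, with 129, 112 and 84.6 under VEH, so that JQ1 lay within the vehicle range and I-BET 762 below it. MAFF (0.68 ± 0.08), FOSL1 (0.69 ± 0.11), JUN (0.75 ± 0.14), JUND (0.66 ± 0.19), EGR1 (0.59 ± 0.11), IER2 (0.59 ± 0.12) and NR4A3 (0.88 ± 0.30) made up the 10. EGR2 and EGR3, by contrast, had differences of -0.08 (95% interval -0.73 to 0.57) and 0.15 (-0.30 to 0.59). Without JQ1 replicates 17 and 19 the median fell to 0.25 and the count was 5 (FOS, FOSB, FOSL1, JUNB and MAFF), and it was 6 without replicate 19 alone or with libraries scaled to equal totals. After correction of each library for GC content the count was 8 (median 0.50), and JUND and IER2 did not pass. JUND did not pass without JQ1 replicate 17 or 19 or any 1 of the I-BET 762 libraries (difference 0.21 to 1.10 over the alternatives, limma adjusted p up to 0.13). The same held for IER2 without JQ1 replicate 17 or 19 or I-BET 762 replicate 22 (difference 0.39 to 0.78 over the alternatives, limma adjusted p up to 0.043). It held for EGR1 without JQ1 replicate 19 or 20 or I-BET 762 replicate 22 (difference 0.45 to 0.69 over the alternatives, limma adjusted p up to 0.026), and for FOSL1 without I-BET 762 replicate 21 (difference 0.58 to 0.82 over the alternatives, limma adjusted p up to 0.016). NR4A3 lost its call without any 1 library other than I-BET 762 replicate 22 (difference 0.52 to 1.13 over the alternatives, limma adjusted p up to 0.23).

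Promoters of FOS and EGR1 are shown because immediate early genes are known for such elements. In FOS (chr14:75278578-75278827, plus strand, GRCh38.p14) the capitals mark a TATA box, TATAAA, from 33 to 28 bases before the start. In EGR1 (chr5:138465229-138465478, plus strand) they mark 2 CArG boxes, the element bound by serum response factor, from 105 to 96 and from 83 to 74 bases before the start.
FOS: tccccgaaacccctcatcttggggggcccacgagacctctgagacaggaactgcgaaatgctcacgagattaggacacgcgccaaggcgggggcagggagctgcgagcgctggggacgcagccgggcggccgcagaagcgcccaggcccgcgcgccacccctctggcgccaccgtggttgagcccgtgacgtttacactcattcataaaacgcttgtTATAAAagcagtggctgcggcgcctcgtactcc
EGR1: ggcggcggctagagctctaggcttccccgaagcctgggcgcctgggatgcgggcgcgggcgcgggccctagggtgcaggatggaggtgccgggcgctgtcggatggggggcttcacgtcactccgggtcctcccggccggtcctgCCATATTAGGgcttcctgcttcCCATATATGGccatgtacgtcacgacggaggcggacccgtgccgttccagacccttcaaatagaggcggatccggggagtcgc
A CArG box was found in 0.928% of the tested genes' promoters. The AP-1 site itself, TGANTCA, was in 7.45% of 161 promoters of genes higher with JQ1, 4.79% of 313 promoters of genes lower, and 3.55% of those of all tested genes. Of the 9 AP-1 and immediate early genes that differed and had a promoter in the table, 0 held this site and 1, EGR1, held a CArG box.

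The feedback genes of the ERK pathway that differed were all higher with JQ1 as well. ERK signalling induces phosphatases and Sprouty proteins that dampen it, together with ETS factors. Of 17 members tested, 5 were higher and 0 lower with JQ1 (median 0.35), or 29.4% against 4.78% of all genes. DUSP6 (chr12:89347235-89352501), an ERK-specific phosphatase, read 1865, 1959.5, 1883 and 1706 with JQ1, 836, 842 and 841 with I-BET 762 and 325, 411 and 406 with VEH. The 3 groups did not overlap, and DUSP6 was 2.2-fold higher with JQ1 (log2 1.14 ± 0.06, limma adjusted p = 2.3e-07). SPRY4, a Sprouty inhibitor of receptor tyrosine kinase signalling, had 2299, 2054, 2342 and 2607 with JQ1 and 1124, 1113 and 1249 with I-BET 762 (1.0 ± 0.08), and its antisense RNA SPRY4-AS1 differed by 1.18 ± 0.21. Whether counting used strand is not stated in the sources used here, so reads of this pair may be shared. ETV5 (0.74 ± 0.06), ETV4 (0.68 ± 0.07) and DUSP2 (0.65 ± 0.15) were the other members, DUSP2 not without I-BET 762 replicate 23 (difference 0.50 to 0.78 over the alternatives, limma adjusted p up to 0.044). SPRY2 (0.54, 95% interval 0.26 to 0.83) and CCND1 (0.54, 0.38 to 0.70), the gene of cyclin D1, stayed under the fold threshold with adjusted p-values of limma of 0.01 and 0.00023.

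The genes of glycolysis and of the hypoxia response that differed were all higher with JQ1. The hypoxia-inducible factors raise glycolytic enzymes and genes of angiogenesis and mitophagy. Of 34 members tested, 8 were higher and 0 lower with JQ1 (median 0.30), or 23.5% against 4.78% of all genes. At the adjusted p alone 22 were higher and 0 lower, against 12.3% and 12.1% of all genes. LDHA (chr11:18394560-18408425), lactate dehydrogenase, was at 78142, 87132, 76196 and 72896 with JQ1, 41284, 46835 and 48389.7 with I-BET 762 and 37358, 41809.6 and 41222 with VEH. JQ1 stood 1.73-fold above I-BET 762, whose libraries partly lay in the VEH range (log2 0.79 ± 0.07, limma adjusted p = 1.5e-05). ALDOA, a glycolytic aldolase, read 1101, 959.6, 940.4 and 988 with JQ1 and 449, 482 and 553 with I-BET 762 (1.01 ± 0.08). ADM, the vasodilator peptide adrenomedullin, was at 1435, 1185, 1328 and 1244 with JQ1, 668, 688 and 742 with I-BET 762 and 1220.3, 1236 and 1219 with VEH, so that the I-BET 762 libraries lay below VEH and the JQ1 libraries around it (0.89 ± 0.07). The oxygen sensor EGLN3 (0.77 ± 0.12) showed the same arrangement. ANKRD37 (0.79 ± 0.16), the mitophagy receptor BNIP3 (0.66 ± 0.07), the hypoxia-inducible factor subunit EPAS1 (0.62 ± 0.08) and NDRG1 (0.61 ± 0.08) were the remaining members. GAPDH differed by 0.35 (95% interval 0.18 to 0.53) and VEGFA by 0.49 (0.35 to 0.62). Both differences were under 1.5-fold, but the interval of VEGFA reached past it. With libraries scaled to equal totals 5 of the 34 passed, with 0 lower. Without JQ1 replicate 20, EPAS1 (difference 0.54 to 0.67 over the alternatives, limma adjusted p up to 0.0056) and NDRG1 (difference 0.52 to 0.67 over the alternatives, limma adjusted p up to 0.0055) did not pass, NDRG1 also not without I-BET 762 replicate 22.

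The core of the hypoxia response element, ACGTG, is in capitals in the promoters of LDHA (chr11:18394313-18394562, plus strand, GRCh38.p14) and ANKRD37 (chr4:185396591-185396840, plus strand). Matches on both strands overlap where the letters read CACGTG.
LDHA: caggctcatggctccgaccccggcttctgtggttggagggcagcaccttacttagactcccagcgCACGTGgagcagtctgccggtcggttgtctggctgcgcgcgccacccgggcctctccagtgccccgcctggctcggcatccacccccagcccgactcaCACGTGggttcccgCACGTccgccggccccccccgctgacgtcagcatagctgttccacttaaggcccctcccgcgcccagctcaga
ANKRD37: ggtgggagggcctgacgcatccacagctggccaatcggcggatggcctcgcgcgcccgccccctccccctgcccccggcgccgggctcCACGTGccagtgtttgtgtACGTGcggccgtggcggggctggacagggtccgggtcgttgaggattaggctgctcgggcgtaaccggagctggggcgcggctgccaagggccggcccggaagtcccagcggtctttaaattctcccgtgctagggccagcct
Among promoters of all tested genes, 23.5% hold this core, as do 4 of the 7 members that differed and had a promoter in the table, 20.5% of the promoters of all genes higher with JQ1 and 20.1% of those of genes lower.

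Stress and inflammatory genes gave smaller groups. Among NF-kB and inflammatory genes, 4 of 22 tested were higher and 0 lower with JQ1 (median 0.13), or 18.2% against 4.78% of all genes. BIRC3, an inhibitor of apoptosis that NF-kB induces, was at 1205, 1437, 1392 and 1304 with JQ1, 670.1, 645 and 729 with I-BET 762 and 733, 929 and 912 with VEH. The inhibitors lay on opposite sides of every VEH library, 0.97 ± 0.07 apart (limma adjusted p = 2.8e-06). The chemokine CXCL8 had 293, 346, 353 and 265 with JQ1 and 219, 168 and 180.1 with I-BET 762, both below the VEH libraries at 512, 639 and 609, and differed by 0.73 ± 0.13. NFKBIZ (0.61 ± 0.07) and IER3 (1.29 ± 0.10, 94.4% of windows copied) were the other members, NFKBIZ not without JQ1 replicate 20 (difference 0.56, limma adjusted p = 0.00026). With libraries scaled to equal totals the median of the list was 0.04. Of 21 tested genes of the NFE2L2 antioxidant response, HMOX1 (heme oxygenase, 0.74 ± 0.05), FTH1 (ferritin heavy chain, 0.67 ± 0.09) and OSGIN1 (0.67 ± 0.08) were higher and AKR1C1 (-0.77 ± 0.20) was lower, the last not without I-BET 762 replicate 21 (difference -0.57, limma adjusted p = 0.097). With libraries scaled to equal totals 1 of these genes was higher and 2 lower, and FTH1 (difference 0.58, limma adjusted p = 0.0014) and OSGIN1 (difference 0.58, limma adjusted p = 0.0012) did not pass, nor did FTH1 without JQ1 replicates 17 and 19 (difference 0.50, limma adjusted p = 0.0009). By the rule 19% of the tested genes of this list differed, against 4.78% of all genes. The cystine transporter SLC7A11 in the same list had a difference of -0.08 (95% interval -0.23 to 0.06). Of 33 ATF4 and unfolded protein response genes, 3 were higher with JQ1, or 9.09% against 4.78% of all genes. Among them were ASNS, asparagine synthetase, at 241, 227, 243 and 213 against 128, 125 and 147, and CHAC1, which breaks down glutathione, at 835, 903, 911 and 930.1 against 574, 522 and 488. For CHAC1 the I-BET 762 libraries lay around VEH (539, 506 and 469).

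Histone genes differed in part. Of 11 variant and linker histone genes tested, 3 were higher with JQ1, or 27.3% against 4.78% of all genes. These were H3-3B, which encodes the replacement histone H3.3, H3-5, a related variant, and H2AX, the variant phosphorylated at DNA breaks. H3-3B read 58609.9, 63223, 57364 and 55434 with JQ1 and 37372, 38804 and 37464 with I-BET 762 (0.63 ± 0.06, limma adjusted p = 1.4e-05). The values of H2AX were 19975, 10250.2, 19966 and 10426 with JQ1 and 8501, 8985 and 9115 with I-BET 762, and its difference of 0.70 ± 0.20 did not pass without JQ1 replicate 17 or 19 or any 1 of the I-BET 762 libraries (difference 0.22 to 1.17 over the alternatives, limma adjusted p up to 0.13). With libraries scaled to equal totals 1 of the 11 passed. Among clustered histone genes, whose main transcripts end in a stem loop without a poly(A) tail, 4 of 47 were higher (8.51%, against 4.78% of all genes). These were H4C15, H4C9, H2AC19 and H1-6, 2 of them, H4C15 and H2AC19, with all windows copied. That count was 2 without JQ1 replicate 17 or I-BET 762 replicate 22, 1 without I-BET 762 replicate 21 and 0 without I-BET 762 replicate 23, but 9 without JQ1 replicates 18 and 20.

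The collagen genes that differed were all lower with JQ1. Collagens are the main structural proteins of the extracellular matrix, and COL1A1, COL1A2 and COL3A1 form its fibrils. Of 25 members tested, 7 were lower and 0 higher (median -0.17), or 28% against 4.78% of all genes. COL3A1 (chr2:188974373-189012746) was at 2472, 2519.8, 2549 and 3039 with JQ1, 5806, 5981 and 5232 with I-BET 762 and 29612, 27402 and 29335 with VEH. The groups were far apart, and COL3A1 was 2.15-fold lower with JQ1 than with I-BET 762 (log2 -1.10 ± 0.07, limma adjusted p = 9.6e-07). COL6A3, of the microfibrillar collagen VI, read 5269, 4694, 5227 and 6757 with JQ1 and 9614, 9816 and 9843 with I-BET 762, against 36199, 28433 and 31862 with VEH (-0.84 ± 0.09). COL1A1 was low in both, at 15.4, 9.79, 13 and 24.3 with JQ1 and 35.4, 39.1 and 36.4 with I-BET 762 (-1.26 ± 0.30). COL21A1 (-0.85), COL4A5 (-0.78), COL12A1 (-0.65) and COL5A1 (-0.61) were the others, COL5A1 not without JQ1 replicate 18 or I-BET 762 replicate 22 (difference -0.76 to -0.46 over the alternatives, limma adjusted p up to 0.038). The median of the list was further from 0 without JQ1 replicate 17 (-0.30), without I-BET 762 replicate 23 (-0.31), without JQ1 replicates 17 and 19 (-0.38), after GC correction (-0.27) and with libraries scaled to equal totals (-0.26). It was nearer 0 without JQ1 replicate 18 (-0.13), without JQ1 replicates 18 and 20 (-0.13) and without I-BET 762 replicate 22 (-0.15). Without JQ1 replicates 18 and 20, 5 collagen genes were lower, and COL12A1 and COL5A1 did not pass. COL1A2 and the matrix protein SPARC differed by -0.35 (95% interval -0.54 to -0.16) and -0.34 (-0.44 to -0.24). LAMA2, a laminin chain of muscle basement membrane, was at 276, 336, 277 and 293 with JQ1 and 525, 486 and 542 with I-BET 762 (-0.81 ± 0.09). Of 21 matrix glycoprotein and matricellular genes tested, CCN2 among them, 5 were higher and 5 lower with JQ1 at the adjusted p alone (median -0.13), and 0 were lower by the rule. Among 23 smooth muscle contractile genes, 2 were lower (8.70%, against 4.78% of all genes), including DES, desmin, at 8.79, 2.18, 6.0 and 14.2 with JQ1 and 21.6, 20.1 and 18.7 with I-BET 762 against 187, 188 and 187 with VEH. DES lost its call without JQ1 replicate 19 or any 1 of the I-BET 762 libraries (difference -1.81 to -1.06 over the alternatives, limma adjusted p up to 0.12).

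Of the interferon-stimulated genes that differed, all but 1 were lower with JQ1. Type I interferons act through a JAK-STAT cascade and IRF9 on this set of antiviral genes, which some tumour cell lines express without added interferon. Of 38 members tested, 8 were lower and 1 higher (median -0.31), or 23.7% against 4.78% of all genes. At the adjusted p alone 22 were lower and 2 higher, against 12.1% and 12.3% of all genes. IFI44L (chr1:78619902-78646145) had 126, 123, 119 and 125 with JQ1, 313, 302 and 282 with I-BET 762 and 2752, 2668 and 2760.1 with VEH. JQ1 was 2.41-fold below I-BET 762, which was itself far below VEH (log2 -1.27 ± 0.10, limma adjusted p = 4e-06). TRIM22, an antiviral ubiquitin ligase, was at 22, 26.1, 21 and 19.3 with JQ1 and 46.2, 63.2 and 61 with I-BET 762 (-1.32 ± 0.22). XAF1, a proapoptotic member, stood at 38.5, 43.5, 47 and 45.6 and 97.4, 117 and 74.8 in the same order (-1.11 ± 0.18). BST2, tetherin, which holds budding virus at the cell surface, read 154, 179.5, 191 and 156 with JQ1, 347, 311 and 294 with I-BET 762 and 1592, 1461 and 1536 with VEH (-0.90 ± 0.11). SAMD9L (-0.86), IFIH1 (-0.69), IFI44 (-0.68) and PARP9 (-0.61) were the other members, PARP9 not without JQ1 replicate 17 or 19 (difference -0.75 to -0.46 over the alternatives, limma adjusted p up to 0.0099). RSAD2, viperin, went the other way at 86.8, 70.7, 92 and 68 with JQ1 and 45.3, 50.1 and 59.1 with I-BET 762 (0.61 ± 0.17), a call lost without JQ1 replicate 17 or 19 or I-BET 762 replicate 21 or 22 (difference 0.43 to 0.79 over the alternatives, limma adjusted p up to 0.17). ISG15 was higher with JQ1 by 0.54 ± 0.07, under the fold threshold. Among genes of interferon sensing and JAK-STAT signalling, TLR3 (-0.96), STAT5A (-0.69) and IRF9 (-0.59) were lower and SOCS1 (0.78), a feedback inhibitor, was higher, out of 27 tested (14.8%, against 4.78% of all genes). IRF9 lost its call without JQ1 replicate 18 or 19 or I-BET 762 replicate 21 or 23 (difference -0.68 to -0.54 over the alternatives, limma adjusted p up to 0.023), and SOCS1 without I-BET 762 replicate 21 or 23 (difference 0.46 to 1.10 over the alternatives, limma adjusted p up to 0.13). Without JQ1 replicate 20, 11 interferon-stimulated genes were lower and 3 higher, and without JQ1 replicates 18 and 20, 13 and 3. Without JQ1 replicates 17 and 19, 6 were lower and 0 higher (median -0.26), and IFI44 and PARP9 did not pass. Leaving out replicate 17 or 19 alone gave 7 lower and 0 higher.

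Interferon regulatory factors bind repeats of GAAA, and the pattern GAAANNGAA is in capitals in the promoters of IFI44L (chr1:78620198-78620447, plus strand, GRCh38.p14) and BST2 (chr19:17405631-17405880, minus strand). IFI44L holds it 164 to 156 and 73 to 65 bases before the start, within a repeat of the same stretch, and BST2 holds overlapping matches from 130 to 116 bases before it.
IFI44L: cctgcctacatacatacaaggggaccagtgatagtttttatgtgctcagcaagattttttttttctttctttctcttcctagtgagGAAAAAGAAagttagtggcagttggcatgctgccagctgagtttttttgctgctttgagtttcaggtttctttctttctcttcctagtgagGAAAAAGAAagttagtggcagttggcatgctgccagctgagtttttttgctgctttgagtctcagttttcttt
BST2: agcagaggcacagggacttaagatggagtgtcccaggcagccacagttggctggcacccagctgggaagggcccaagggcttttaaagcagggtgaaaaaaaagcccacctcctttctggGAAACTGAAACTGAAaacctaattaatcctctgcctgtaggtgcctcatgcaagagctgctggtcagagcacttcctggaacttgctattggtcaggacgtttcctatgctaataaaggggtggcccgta
This pattern was in 5 of the 8 promoters of interferon-stimulated genes that differed and 5.17% of all tested promoters, against 6.71% of promoters of all genes lower with JQ1.

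**Figure D3:**
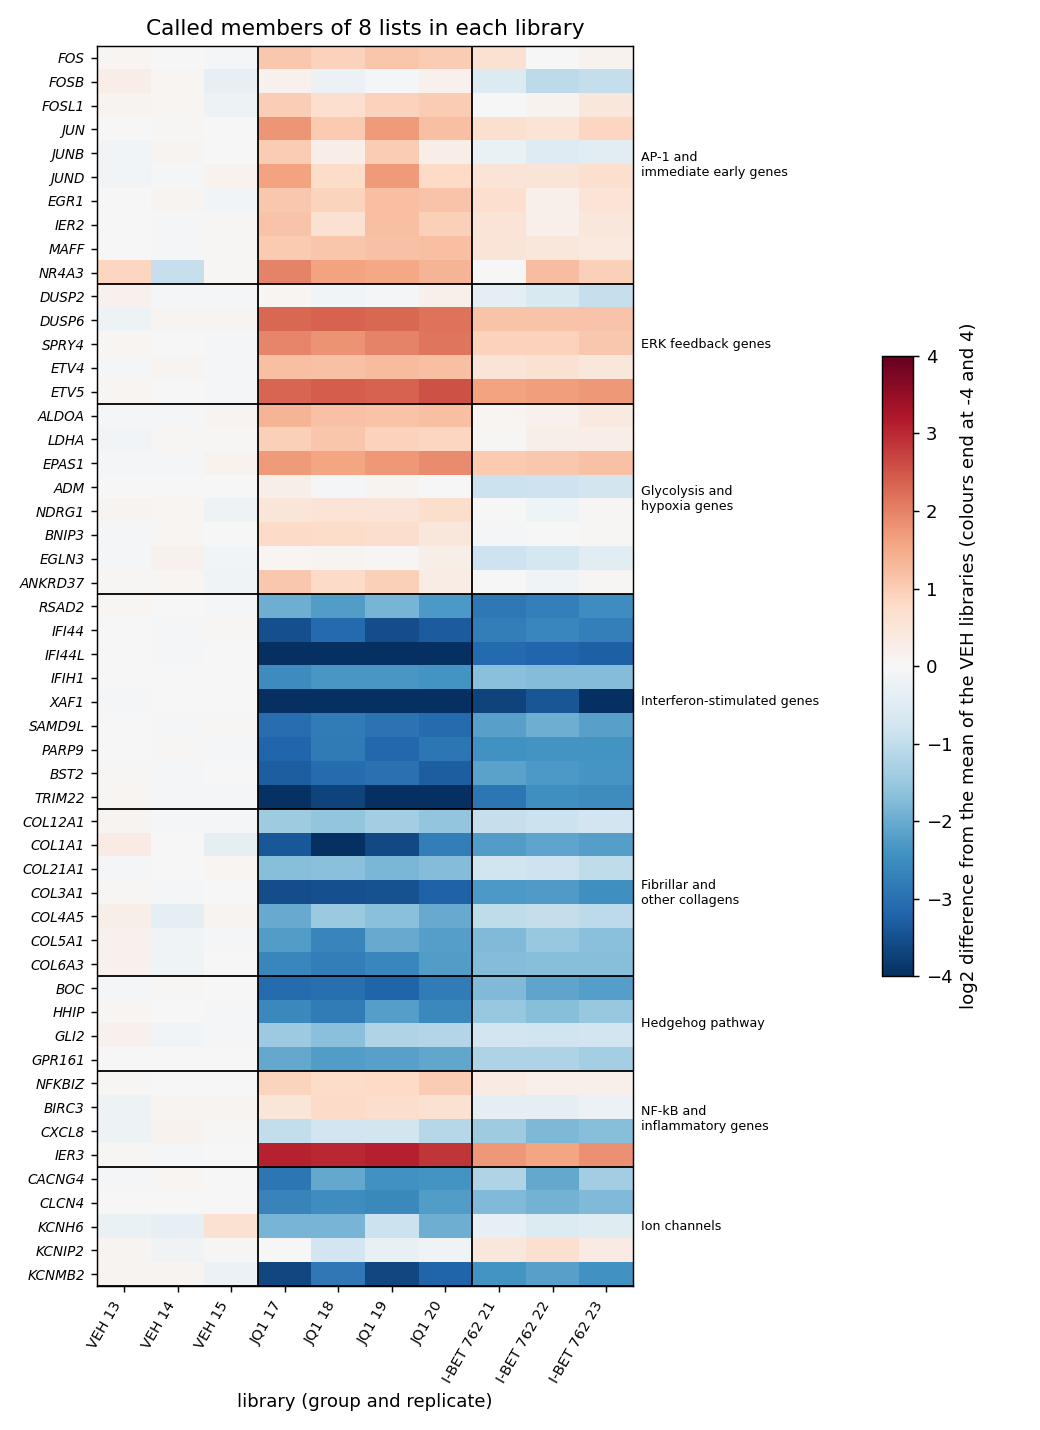
Log2 difference of each library from the mean of the 3 VEH libraries, for 52 genes of 8 lists that differed between the inhibitors, with colours ending at -4 and 4. In the rows of collagen and Hedgehog genes all cells of both inhibitors are blue and those of JQ1 darker, and in the rows of DUSP6, SPRY4 and ETV5 all are red and those of JQ1 darker.

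The Hedgehog pathway genes that differed were all lower with JQ1. Hedgehog ligands relieve the repression of SMO by the receptor PTCH1, after which GLI factors act on target genes. Of 16 members tested, 4 were lower and 0 higher (median -0.29), or 25% against 4.78% of all genes. HHIP, a ligand-binding inhibitor that GLI factors induce, read 160.4, 137, 205 and 158 with JQ1, 336, 289.7 and 334 with I-BET 762 and 1017, 941 and 912 with VEH (-0.96 ± 0.13, limma adjusted p = 0.00022). GPR161 (chr1:168079542-168137667), a receptor of the primary cilium that restrains the pathway, had 414, 364, 383 and 404 with JQ1 and 722, 721 and 670.4 with I-BET 762 (-0.85 ± 0.08). These members both hold the pathway back in their textbook role. The co-receptor BOC (-1.0 ± 0.25) and the transcription factor GLI2 (-0.60 ± 0.12) were the others, with GLI2 at 185, 159.9, 220.1 and 225 against 301, 293 and 298. For GLI1 the libraries were uneven, 36.3, 14.1, 21 and 51.7 with JQ1 and 42.3, 40.1 and 28.5 with I-BET 762 against 488, 478 and 395 with VEH, and the difference of -0.40 had a 95% interval of -1.17 to 0.38. That of GLI3 was -0.64 to 0.01 and that of SMO -0.30 to -0.06. GLI2 lost its call without JQ1 replicate 17 (difference -0.57, limma adjusted p = 0.0094) or 18 (difference -0.51, limma adjusted p = 0.0029), and BOC without I-BET 762 replicate 21 (difference -0.87, limma adjusted p = 0.076).

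Signalling genes of development differed in both directions. Of 40 TGF-beta and BMP genes tested, 4 were higher (BMP6, ID4, BAMBI and ID1) and 2 lower (TGFB2 and BMP5) with JQ1, or 15% against 4.78% of all genes. BAMBI, a decoy receptor, was at 177, 166, 176 and 171 with JQ1 and 105, 113 and 84.7 with I-BET 762 (0.78 ± 0.13), and the ligand TGFB2 at 433, 407, 468 and 373 and 736, 698 and 692 (-0.76 ± 0.09). Among 25 Notch genes, 16% differed, against 4.78% of all genes. HES6 (1.0 ± 0.14), the ligand DLL4 (0.74 ± 0.20) and NRARP (0.63 ± 0.16) were higher and DTX3, a ubiquitin ligase, was lower at 322, 289, 307 and 348 against 631, 612 and 624 (-0.98 ± 0.08). Of 36 WNT genes, 13.9% differed, against 4.78% of all genes. The receptors FZD8 (1.35 ± 0.27) and FZD1 (0.60 ± 0.10) were higher, and the antagonists SFRP5 (-1.17 ± 0.37) and DKK2 (-0.73 ± 0.25) and the ligand WNT4 (-0.71 ± 0.21) lower. The WNT count of 5 was 1 without I-BET 762 replicate 21, 2 without JQ1 replicate 19 or I-BET 762 replicate 22, and 3 without JQ1 replicate 17 or I-BET 762 replicate 23, and the Notch count of 4 was 2 without JQ1 replicate 17 or I-BET 762 replicate 22 or 23. Among receptor tyrosine kinases and growth factors, KITLG, stem cell factor, was higher at 132, 132, 124 and 121 against 53.1, 91.2 and 68.9 (0.86 ± 0.17), and PDGFRB was lower at 115, 114, 118 and 126 against 174, 179 and 207 (-0.65 ± 0.12). PDGFRB did not pass without I-BET 762 replicate 23 (difference -0.58, limma adjusted p = 0.015), nor BMP6 without I-BET 762 replicate 21 or 23 (difference 0.92 to 1.39 over the alternatives, limma adjusted p up to 0.1).

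Ion channel genes and noncoding RNAs that differed were mostly lower with JQ1, though not the LINC RNAs with a mean of at least 100 normalized counts. Of 57 ion channel genes tested, 6 were lower and 0 higher (median -0.25), or 10.5% against 4.78% of all genes. KCNMB2, a regulatory subunit of the calcium-activated BK potassium channel, had 11, 19.6, 11 and 15.2 with JQ1, 27.6, 32.1 and 26.6 with I-BET 762 and 162, 162 and 125 with VEH (-1.0 ± 0.28). It did not pass without JQ1 replicate 19 or any 1 of the I-BET 762 libraries (difference -1.30 to -0.70 over the alternatives, limma adjusted p up to 0.13). Of the 6, 3 remained without I-BET 762 replicate 21, replicate 23, or JQ1 replicates 17 and 19. Of 148 LINC noncoding RNAs tested, 5 were higher and 16 lower with JQ1 (14.2%), and LINC01203 was at 3.3, 7.62, 6.0 and 5.07 against 25.6, 22.1 and 27.6 (-2.04 ± 0.35). Of 316 antisense RNAs, 2 were higher and 16 lower, or 5.70%, a share near the 4.78% of all genes, and the lower genes numbered 6, 8 and 5 without I-BET 762 replicate 21, 22 or 23. For the LINC RNAs that number was 10, 8 and 6 in the same order, and 10 without JQ1 replicates 17 and 19. Where a mean of at least 100 normalized counts was required, 3 of 34 LINC RNAs were higher and 1 lower (median 0.03). Under the same filter 1 of 31 ion channel genes was lower and 0 higher (median -0.04). Of 106 antisense RNAs 4 were then lower and 0 higher. Of 24 HOX genes, 2 were lower (8.33%). Of 223 solute carrier genes 2 were higher and 6 lower, or 3.59%, a share near that of all genes, with 0 higher when libraries were scaled to equal totals.

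**Figure D4:**
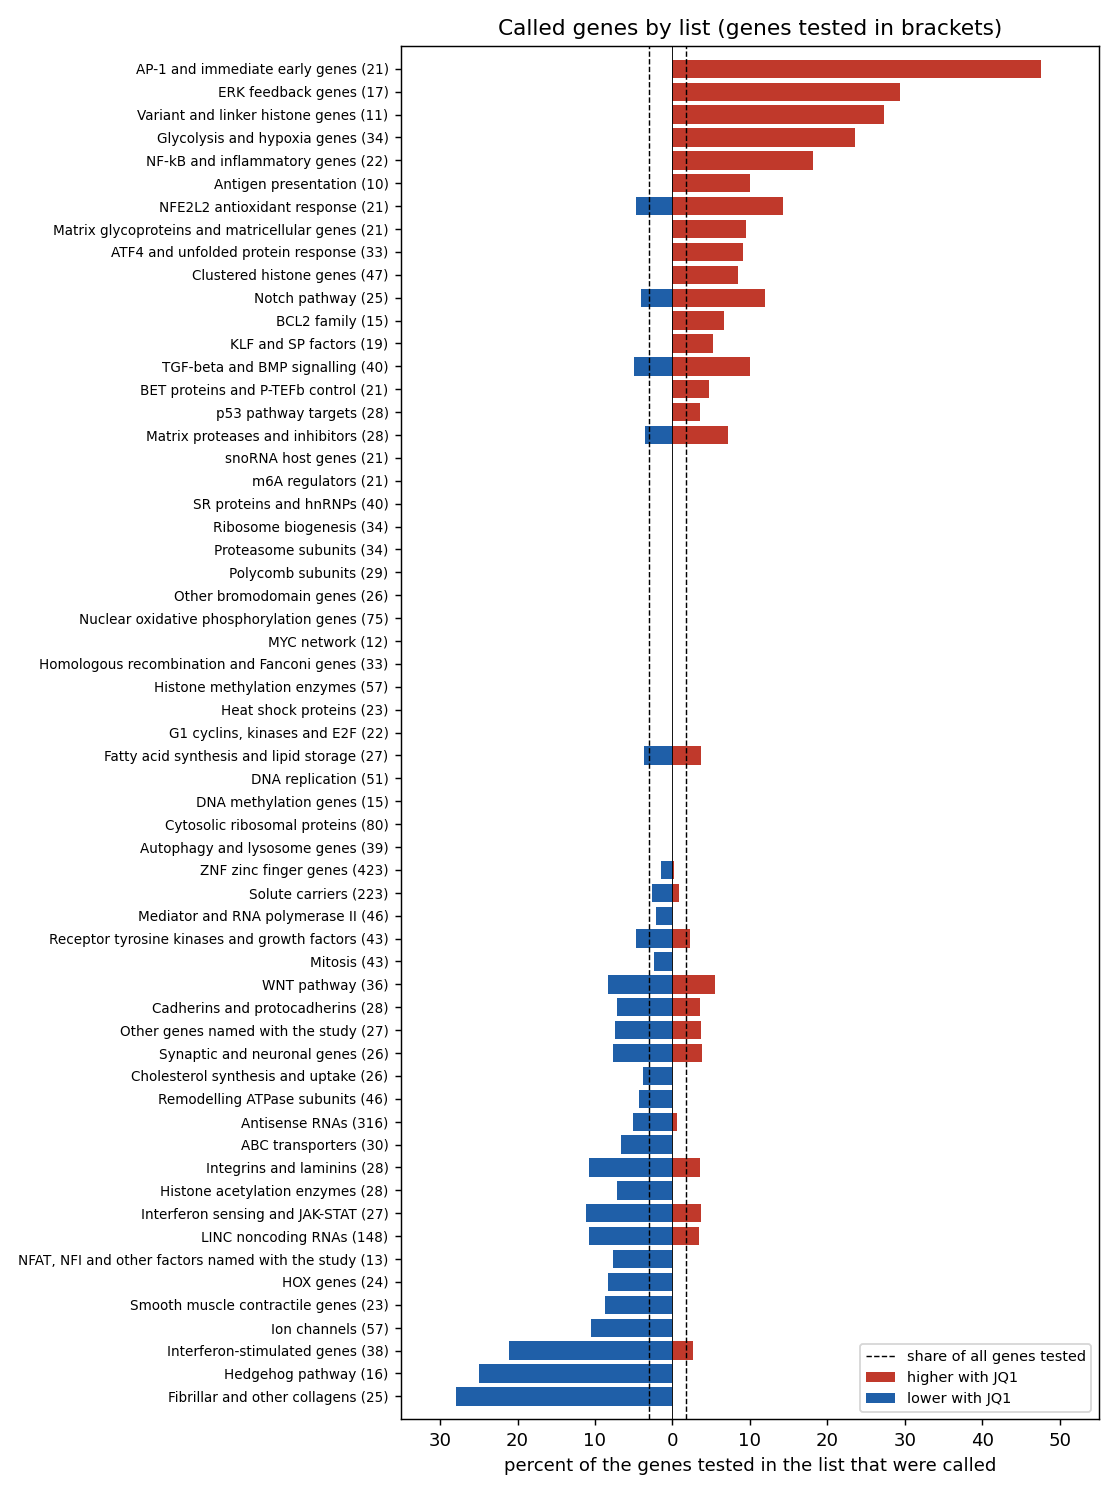
Number of genes higher (right) and lower (left) with JQ1 as a percentage of the tested members, for 59 lists with at least 10 tested members, with lines at the background of 1.76% higher and 3.02% lower. AP-1 genes reach 47.6% on the higher side and collagens 28% on the lower side, and DNA replication, ribosomal protein and proteasome genes are at 0.

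Most genes of the BET proteins themselves and of the machinery they recruit did not pass the rule. Of 21 members tested, 1 differed, the copied gene BRD2, or 4.76% against 4.78% of all genes. For 16 the 95% interval lay inside 1.5-fold, or 76.2%, a share near the 71.9% of all tested genes. At the adjusted p alone 4 were higher and 2 lower with JQ1, against 12.3% and 12.1% of all genes. BRD3 was at 1137, 934, 1032 and 1131 with JQ1 and 1016, 1048 and 1015 with I-BET 762, a difference of 0.04 with a 95% interval of -0.12 to 0.20. Those of CDK9 (0.03 to 0.27), CCNT1 (-0.02 to 0.24) and CCNT2 (-0.13 to 0.10), the subunits of P-TEFb, also lay within that range. HEXIM1 read 4627, 4451, 4898 and 4894 with JQ1, 3251, 3528 and 3332 with I-BET 762 and 1641, 1639 and 1601 with VEH. Its groups did not overlap, but the difference of 0.48 (0.37 to 0.60, limma adjusted p = 5.5e-05) was under 1.5-fold, although its interval reached past it. MYC had the same order at 10278, 9632, 10551 and 11028 with JQ1, 7628, 7063 and 7861 with I-BET 762 and 5339, 5219 and 4971 with VEH, both inhibitors lying above vehicle, with a difference of 0.46 (0.34 to 0.59). Of the 12 genes of the MYC network tested, the other 11 had an interval inside 1.5-fold. Ribosome biogenesis genes, known targets of MYC, numbered 0 of 34 past the rule. At the adjusted p alone 19 were higher and 0 lower, against 12.3% and 12.1% of all genes (median 0.20, or 0.11 with libraries scaled to equal totals).

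Of 7 CDK inhibitor genes tested, CDKN1A alone differed, or 14.3% against 4.78% of all genes. CDKN1A (chr6:36676460-36687337), which encodes p21, an inhibitor of cyclin-dependent kinases, was at 1396, 1377, 1373 and 1409 with JQ1, 624, 546 and 609 with I-BET 762 and 281, 261 and 222 with VEH. The 4 JQ1 libraries lay close together, and the difference of 1.23 ± 0.06 (limma adjusted p = 2.3e-07) was 2.34-fold. CDKN1B (-0.15 to 0.10), CDKN2B (-0.22 to 0.23), CDKN2C (-0.40 to -0.02) and CDKN2D (-0.34 to -0.04) had intervals inside 1.5-fold. CDKN2A was uneven with JQ1, at 6345, 4193, 7230.2 and 3823 against 4083, 3818 and 3804, and its interval was 0.06 to 0.78. Of 28 p53 pathway targets, 1 was higher, or 3.57% against 4.78% of all genes. This was the kinase gene PLK3 at 583, 483, 505 and 582 against 287, 287 and 284 (0.90 ± 0.09). At the adjusted p alone 11 were higher and 3 lower, against 12.3% and 12.1% of all genes. Of the cell cycle genes, cyclin D2, CCND2 (-0.47, -0.59 to -0.34), and CDK6 (-0.47, -0.68 to -0.26) lay lower with JQ1. Their differences were under 1.5-fold, but both intervals reached past it. The mitotic transcription factor FOXM1 passed, at 1075, 1134, 1286 and 1367 with JQ1, 1947, 1842 and 1854 with I-BET 762 and 3914, 3569 and 3702 with VEH (-0.64 ± 0.08, limma adjusted p = 0.00012). It was 1 of 43 mitosis genes (2.33%), and did not pass without JQ1 replicate 17 (difference -0.58, limma adjusted p = 0.00025).

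**Figure D5:**
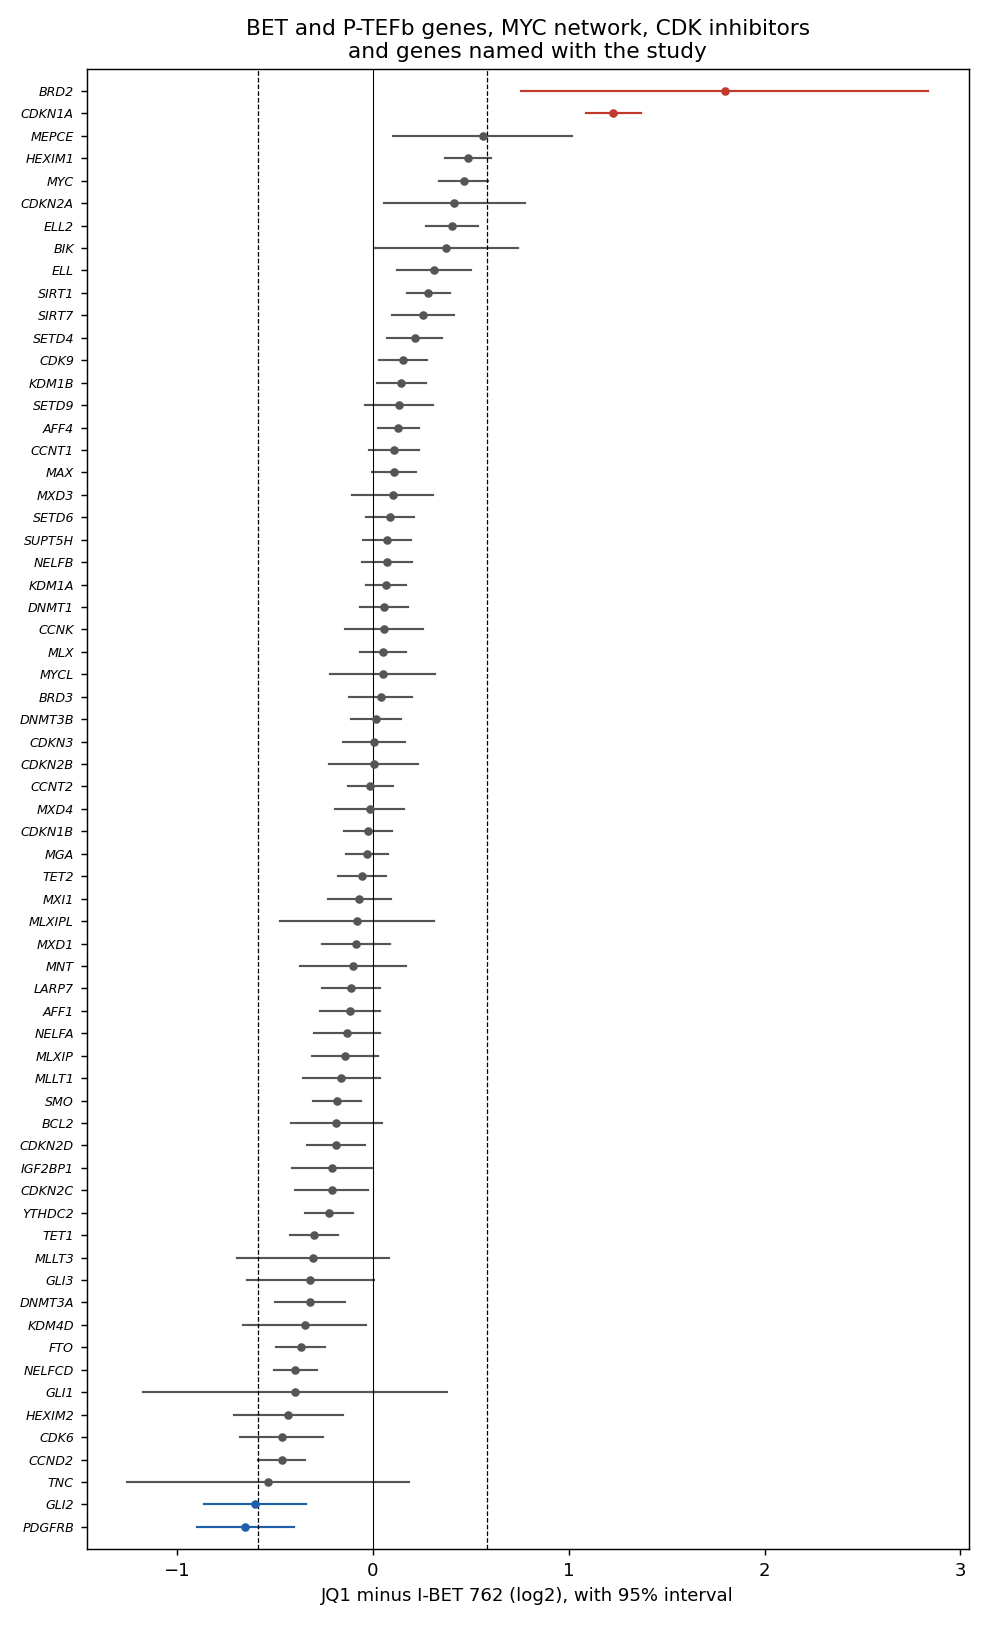
Difference between JQ1 and I-BET 762 (log2) with its 95% interval for 65 genes of the BET and P-TEFb, MYC network, CDK inhibitor and other lists tied to the study's questions, with lines at 1.5-fold in either direction. The interval lies inside the lines for 48 genes, and BRD2, CDKN1A, GLI2 and PDGFRB passed the rule.

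Large functional groups showed no gene past the rule, and here the intervals bound the difference. All 51 DNA replication genes and all 15 DNA methylation genes tested had intervals inside 1.5-fold. The same held for 74 of 75 nuclear genes of oxidative phosphorylation, 77 of 80 cytosolic ribosomal protein genes, 33 of 34 proteasome genes, 20 of 21 m6A regulators and 25 of 26 bromodomain genes outside the BET family. Over all tested genes the share was 71.9%. Where a mean of at least 100 normalized counts was required, 9750 of 10884 genes had such an interval. By the adjusted p of limma alone, under 0.05, 24 of the 80 ribosomal protein genes were higher and 1 lower with JQ1 (median 0.14), but this median was 0.05 with libraries scaled to equal totals and 0.08 without JQ1 replicate 18. MCM2, a subunit of the replicative helicase, was at 7364, 6832, 7332 and 7562 with JQ1 and 7821, 7656 and 7544 with I-BET 762, an interval of -0.19 to 0.03. Of 46 subunits of remodelling complexes tested, 2 were lower and 0 higher with JQ1, or 4.35%, a share near the 4.78% of all genes. At the adjusted p alone 17 were lower and 1 higher (median -0.12), against 12.1% and 12.3% of all genes. Of 28 histone acetylation enzymes, HDAC9 and HDAC10 were lower and 0 higher (7.14%), with 11 lower and 2 higher at the adjusted p alone (median -0.02). HDAC10 did not pass without JQ1 replicate 17 or 19 or any 1 of the I-BET 762 libraries (difference -0.85 to -0.39 over the alternatives, limma adjusted p up to 0.26). The remodelling subunits were SMARCAL1 (-0.60), which did not pass without JQ1 replicate 19 or I-BET 762 replicate 21 (difference -0.69 to -0.55 over the alternatives, limma adjusted p up to 0.0062), and SMARCE1, a SWI/SNF subunit, at 726, 768, 753 and 665 against 1145, 1198 and 1291 (-0.73 ± 0.07). The Mediator subunit gene MED24 was also lower, at 968, 872, 964 and 1099 against 1901, 1713 and 1721 (-0.87 ± 0.08).

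In 14 of the 682 genes, every JQ1 library lay on one side of all VEH libraries and every I-BET 762 library on the other, 9 with JQ1 above and 5 with JQ1 below. PLAUR, the urokinase receptor, was at 1690.0, 1722, 1852 and 1719 with JQ1, 912, 998 and 912 with I-BET 762 and 1235, 1276 and 1078 with VEH (0.89 ± 0.06, limma adjusted p = 1.1e-06). BHLHE40, a circadian and hypoxia-responsive repressor, read 256, 244, 275 and 276, 134, 136 and 175 and 215, 180.3 and 191 in the same order (0.83 ± 0.12). With JQ1 below, SLC4A8, a sodium-driven bicarbonate exchanger, had 1304, 1281, 1362 and 1399 with JQ1, 2049.6, 1970.0 and 2083 with I-BET 762 and 1801, 1759 and 1741 with VEH (-0.61 ± 0.06), and ABAT, which breaks down GABA, had 382, 339, 293 and 353, 569.7, 565 and 538 and 484, 459 and 506 (-0.71 ± 0.09). These genes were chosen for this arrangement, and no test against VEH was made. The arrangement was not counted over all tested genes.

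Gene structure was summarised as a description, with no test. Among annotated genes, the median number of exons was 4.5 for the 240 higher with JQ1, 12 for the 427 lower and 10 for the 13955 tested, and 61 of the 240 (25.4%) had a single exon, against 19 of 427 (4.45%) and 6.95% of all. Median summed exon length was 3086, 6143 and 5169 bases in the same order, and median GC content of the exons was 53.5%, 50.5% and 48.0%. The median VEH level was 87.4 normalized counts for the genes higher, 270 for those lower and 898 for all tested. A TATA box was in 26 of 161 promoters of genes higher with JQ1 (16.1%), 23 of 313 promoters of genes lower (7.35%) and 5.21% of tested promoters. The GC box, GGGCGG, was in 73.3%, 54.0% and 68.2% of them. After correction of each library for GC content, 257 genes were higher and 444 lower, and 639 of the 682 genes were among them.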

How the data were processed

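Total RNA of SK-UT-1 cells was sequenced from strand-specific libraries. According to the methods and the submitters' processing notes, the authors checked reads with FastQC 0.73, trimmed them with Trimmomatic, aligned them to hg38 with HISAT2 2.2.1, counted them per gene with featureCounts 2.0.3 and normalized with DESeq2 after leaving out outlier samples. The strand setting of the counting is not given in the sources used here. The authors deposited log2 of each normalized count plus 1, for 10 libraries. Back-conversion gave whole reads for 99.7% of values (tolerance 0.001), and 135 tested symbols share all values with another symbol.

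JQ1 was compared with I-BET 762 on the deposited log2 scale by limma 3.58.1 (R 4.3.3) with a trended prior and Benjamini-Hochberg adjustment over 14262 genes, using the 4 JQ1 and 3 I-BET 762 libraries. Fold changes are therefore on the log2(normalized count + 1) scale and understate those of low genes. Differences are given with their SE and intervals are 95%. A count of 0 to 3 reads was treated as the floor, and no gene that differed had either group at it. The fit was tested on simulated data first. Groups came from the labels, and samples with no column were not analysed here. Symbols were matched to the reference annotation for 97.8% of tested genes, whose coordinates (GRCh38) are 1-based, and a gene was called copied when over 50% of up to 40 windows of 75 exon bases occurred elsewhere in that assembly. Promoters came from the RefSeq table.

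Members, gene lists and tests were chosen with earlier results of these data known. Genes were named by a rule: the 10 largest differences in each direction with groups that do not overlap and a higher mean of at least 50, the 5 largest with a mean of at least 2000, up to 4 differing and 2 not differing members per list, all members of 4 lists tied to the study, and the 5 largest per direction on opposite sides of VEH. No gene that differed had at most 3 reads in every library of 1 inhibitor. Other members named to complete a count, and EGR2, EGR3, VEGFA, ISG15, SLC7A11, SPRY2 and MCM2, were chosen after their values were seen. Of the 66 lists, those not described had the counts shown by their bars in the plot of shares by list. Alternatives were pseudocounts of 0.5 and 5, other filters on low values, other scalings, all 10 libraries, no trend, limma-voom on recovered reads, other fold thresholds and leaving out each library. Leaving out pairs of JQ1 libraries, GC correction, scaling without RN7SL1 and removal of copied genes were chosen after seeing the data. Results for a few genes covered by this rule are not reported here.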

Additional observations from a re-analysis of the deposited data

Results flagged for a closer look

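Among the 149 named genes that differed, the 4 JQ1 libraries of 6 genes held 1 library far from the other 3 by Dixon's test, which chance gives in about 1 of 20 groups. The I-BET 762 and VEH groups of 3 were too small for it. In JQ1 replicate 20, COL3A1 was at 3039 (the others 2472 to 2549), EEF1D at 718 (67.0 to 115), ITGA2B at 31.4 (24.2 to 25.0) and PACSIN1 at 47.7 (37.0 to 38.5). KCNH6 was at 12 in replicate 19 (5.07 to 5.49) and TFPI2 at 190.4 in replicate 18 (199 to 200). All exon windows of EEF1D are copied elsewhere in the reference.

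The effects of the inhibitors relative to VEH had opposite signs in every library for 10 named genes, which the naming rule chose for this arrangement. The difference between the effects is the contrast tested by limma, and neither effect was tested against VEH. With JQ1 above VEH and I-BET 762 below it, the difference was 1.18 for ZMYND15, 1.04 for JUNB, 0.968 for BIRC3, 0.892 for PLAUR and 0.828 for BHLHE40. With JQ1 below and I-BET 762 above, it was -0.711 for ABAT, -0.656 for DEPDC4, -0.635 for ATOH8, -0.606 for SLC4A8 and -0.591 for CYFIP2.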

How the results depend on the processing

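The 682 genes that differed (251 higher and 431 lower with JQ1) became 353 (156 higher and 197 lower) when a mean of at least 100 normalized counts was required. That filter left 10884 genes to test, and many genes that differed were low. The median level over the 7 libraries was 167 normalized counts for genes higher with JQ1, 86.6 for those lower and 864 for all tested. With libraries scaled to equal totals 164 were higher and 649 lower, and without RN7SL1 in the totals 166 were higher. With no fold threshold 3479 genes differed (1751 higher and 1728 lower), and over 2-fold 156 did (70 and 86). Without JQ1 replicates 18 and 20, 426 genes were higher, and the cause was not tested. Without 1 library at a time, the count ranged from 485 to 742 in all, from 185 to 314 higher and from 300 to 464 lower, and 9703 to 10249 genes had an interval inside 1.5-fold. Under both pseudocounts, no filter on low values, equal upper quartiles, all 10 libraries, no trend, limma-voom, GC correction and removal of copied genes, the number of genes that differed stayed between 617 and 703 except with all 10 libraries, where it was 756. Over 21 alternatives, 86 of 149 named genes that differed passed in every alternative that tested them, no difference changed sign, and 320 of 3053 values no longer passed, most without I-BET 762 replicate 21 (37 genes). Of 180 named genes that did not differ, 11 passed in some alternative. No paired analysis was possible because the groups share no replicate numbers. Depth limits low genes: 3 reads were 2.95 to 3.30 normalized counts, and 8522 symbols were not tested.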

Other observations

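Genes with larger differences than those described had groups that overlapped or exon sequence copied elsewhere, and were chosen after their values were seen. LOC102724594 differed by 3.30 (log2, limma adjusted p = 0.0141) and SINHCAF by -2.45 (limma adjusted p = 0.0218), with normalized counts of SINHCAF of 15.8, 241 and 268 in I-BET 762 replicates 23, 22 and 21.

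MT1A, a metal-binding metallothionein, was higher with JQ1 by 0.62, as 1 of 7 metallothioneins tested. IGFBP5, a secreted binding protein of insulin-like growth factors, was at 29.7, 27.2, 11 and 17.2 with JQ1 and 41.3, 51.1 and 41.3 with I-BET 762, a difference of -1.12 (limma adjusted p = 0.019). It did not pass without any 1 of the I-BET 762 libraries (difference -1.17 to -1.02, limma adjusted p 0.058 to 0.085).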
